A study of Xiphophorus maculatus x Xiphophorus hellerii with 32 samples.

Results

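Melanoma was compared between 2 sets of backcross hybrid fish whose sample titles carry the numbers 11963 and 11949. The members were all melanoma libraries with these title numbers: 3 of 11963 (fish 11963a, 11963d and 11963g) and 8 of 11949 (fish 11949a, b, c, d, f, g, h and l), together 11 of the 32 libraries in the series. Each library was a different fish, and all fish were 9-month-old, melanoma-bearing first-generation backcross hybrids between Xiphophorus maculatus, a platyfish, and Xiphophorus hellerii, a swordtail, with no treatment named. The labels do not say what the title number marks, so a difference between the numbers cannot be told apart from any brood, batch or handling that goes with them. Skin was sequenced from 3 fish of 11963 and 8 of 11949 as well, and 10 fish gave both tissues. In bulk RNA, fewer cells of a type and less of an RNA per cell cannot be told apart.

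Melanoma in the Gordon-Kosswig cross is driven by Xmrk, an oncogenic copy of an EGF receptor gene that comes from the platyfish parent. Purebred platyfish keep the oncogene in check, and hybrids that inherit it without the restraining platyfish locus form tumors from their melanin-bearing cells. Backcross fish inherit different sets of parental alleles, so their tumors share the driver while the rest of the genome varies from fish to fish.

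A single transcript separated the melanomas in edgeR. ENSXMAT00000009646 had counts of 0, 0 and 0 in the melanomas of 11963a, 11963d and 11963g. In the melanomas of 11949 its counts ran from 14 in 11949f to 44 in 11949h, and all 8 libraries were above 0. In CPM (read counts scaled to a common library size, corrected for library composition by TMM) these libraries lay between 4.52 and 8.19, with a mean of 6.09 ± 1.25 (SD, n = 8). The edgeR quasi-likelihood test of no difference gave a Benjamini-Hochberg adjusted p of 0.00509. For a bound on the size, a floor of 3 counts was set over the 3 melanomas of 11963. The counts of each group were pooled over its summed library sizes. Against that floor the transcript was at least 32.9-fold lower in 11963 than in 11949, a bound that was not itself tested. The floor covers counting error only. The files and tables used here pair this identifier with no gene name.

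Counts of 0 were also seen in skin. The skins of the same 3 fish of 11963 held 0, 0 and 0 counts of ENSXMAT00000009646, while the 8 skins of 11949 held from 7 to 70. On the same floor and with pooled counts it was at least 28.1-fold lower in the skin of 11963. In skin its adjusted p was 0.293 in edgeR. In the remaining 9 libraries with a matching title, from fish of 11935 and 11960, the counts ran from 13 to 41. Among the libraries matched to a title, all 6 of 11963 were at 0 and the 25 others held between 7 and 70 counts. The column that matches no title was left out. It was the single row with 0 in the 6 libraries of 11963 and a count in every other library used. Because 0 counts were found in both tissues, a difference between the tissues in the effect of title number could not be estimated for this transcript. ENSXMAT00000009646 was chosen for description after its values were seen.

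**Figure D1:**
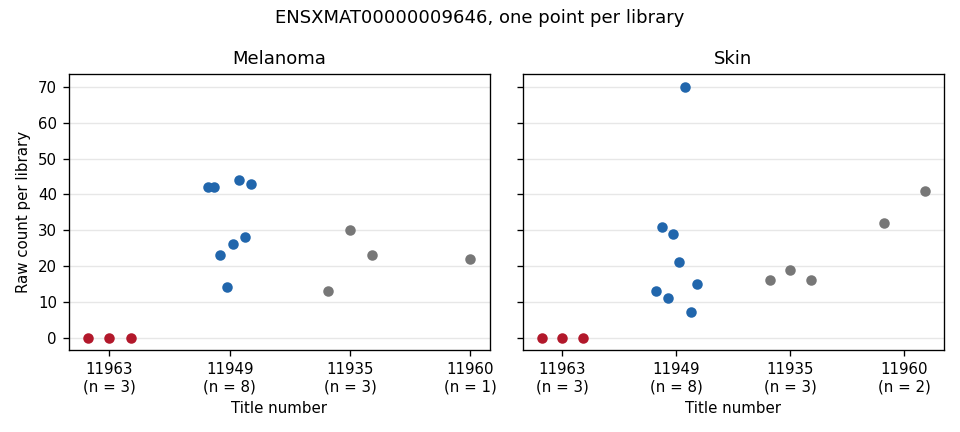
Raw counts of ENSXMAT00000009646 in each library (points) by title number, melanoma on the left and skin on the right. The 6 libraries of 11963 sit at 0, and the 25 other libraries used sit between 7 and 70.

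Over all 15443 transcripts tested, this transcript was the 1 that passed the threshold of an adjusted p below 0.05 in edgeR (0.00648% of those tested), with 0 higher and 1 lower in 11963. An unadjusted p below 0.05 was seen for 1046 (6.77%), of which 394 were higher (2.55%) and 652 lower (4.22%) in 11963, where 772 would be expected if no transcript differed. DESeq2, run as an alternative on the same libraries, called 87 of the 15099 transcripts to which it gave an adjusted p (0.576%), 24 higher and 63 lower, and 0 of them carried a gene symbol. Of these 87, the groups overlapped in 46, and in 2 a single library held most of the counts. Counts of 0 in all melanomas of 11963 were seen for 5 of the 87. In edgeR the lowest adjusted p among the other calls of DESeq2 was 0.113. Single libraries moved the edgeR count: it was 14 without the melanoma of 11963d (13 higher, 1 lower) and 9 without that of 11949c (0 higher, 9 lower). ENSXMAT00000009646 passed with each of the 11 libraries left out in turn (adjusted p from 0.00592 to 0.0305, edgeR). It did not pass without the melanomas of 11963a, 11949b and 11949c together (adjusted p = 0.0799, edgeR), an omission chosen after seeing the data that leaves 2 melanomas against 6. Its fitted log2 fold change, which depends on the prior count, was -8.03 there and -8.02 with all 11 libraries.

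A further 3 identifiers did not pass in edgeR but were called by DESeq2. They were picked after values were seen, as those with the smallest edgeR p in each direction. The pick was made among transcripts whose groups did not overlap and whose higher group averaged at least 10 CPM. ENSXMAT00000001804 had 2.47, 1.67 and 2.51 CPM in the melanomas of 11963a, d and g, and from 8.45 to 26.9 CPM in those of 11949 (log2 fold change -3.07, SE 0.45, edgeR adjusted p = 0.113). Its 3 values in 11963 lay close together and, as the pick required, below all 8 of 11949. The adjusted p was 0.00857 without the melanoma of 11949c, at most 0.786 with another library left out in turn, and 7.09e-08 in DESeq2. In skin its log2 fold change was -1.66 (SE 0.66, edgeR adjusted p = 0.655). Raw counts were 183, 42, 66 and 45 in the melanomas of 11935d, 11935e, 11935f and 11960a, beside 14, 10 and 11 in 11963a, d and g. ENSXMAT00000003927 had 153, 44.7 and 61.3 CPM in the melanomas of 11963a, d and g, and 10.9 to 30.4 CPM in those of 11949 (log2 fold change 1.91, SE 0.37, edgeR adjusted p = 0.245). The melanoma of 11963a stood highest, and DESeq2 gave an adjusted p of 0.00446. Without 11963a the log2 fold change was 1.19 (edgeR adjusted p = 0.523), and over single omissions the adjusted p ran from 0.0629 to 0.997. Its skin log2 fold change was 0.88 (SE 0.47, edgeR adjusted p = 0.768). The melanomas of 11935d, 11935e, 11935f and 11960a held 148, 258, 88 and 797 counts, beside 867, 267 and 268 in 11963a, d and g. ENSXMAT00000017024 had 14.1, 13.0 and 40.0 CPM in 11963a, d and g, and 1.38 to 7.65 CPM in 11949 (log2 fold change 2.26, SE 0.50, edgeR adjusted p = 0.406). DESeq2 gave an adjusted p of 0.0132. Without 11963g the log2 fold change was 1.55 (edgeR adjusted p = 0.997), and over single omissions the adjusted p ran from 0.221 to 0.997. Its skin log2 fold change was 1.42 (SE 0.41, edgeR adjusted p = 0.502). Counts were 42, 105, 55 and 181 in the melanomas of 11935d, 11935e, 11935f and 11960a, beside 80, 78 and 175 in 11963a, d and g. Among the melanomas compared, 11963g stood highest for ENSXMAT00000017024, so the library at the top differed between these transcripts.

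Rows with a gene symbol numbered 30, of which 21 had enough counts for a test. None of the 21 passed in edgeR (0) or in DESeq2 (0), 1 had an unadjusted p below 0.05 in edgeR, and in 0 of them did the groups fail to overlap. Over all transcripts these shares were 0.00648%, 0.576%, 6.77% and 1.43%. Counts of 0 or 1 among 21 rows, or of 0 in a list of them, are near those shares. Their median log2 fold change was 0.0063 over 12 positive and 9 negative values, beside -0.019 over all transcripts tested, and their median absolute log2 fold change was 0.25, beside 0.36 over all. For 13 of the 21 the 95% interval of the difference lay within a 2-fold change either way. A p that misses the threshold does not show that 2 levels are equal, so the intervals are given with the genes below. Roles are stated as known from mammals, except that of Xmrk.

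**Figure D2:**
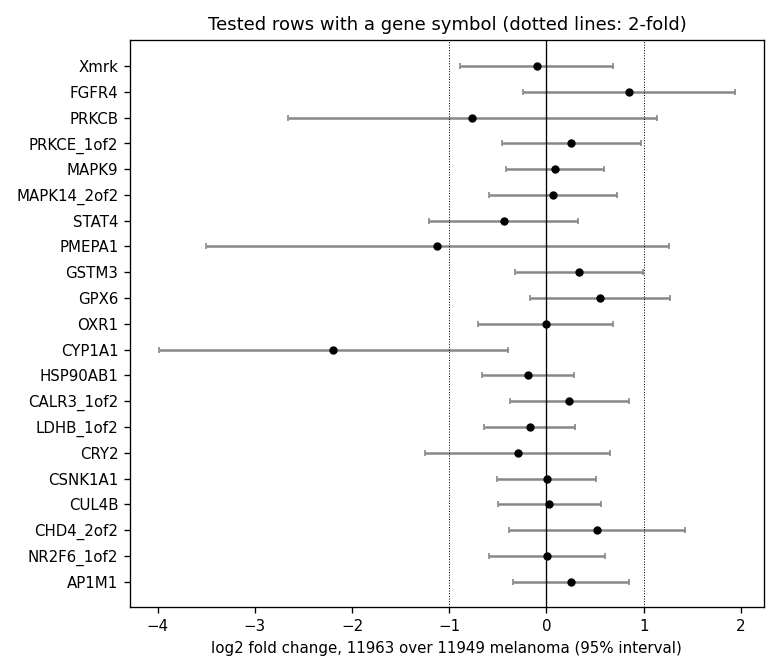
Log2 fold change of melanoma of 11963 (n = 3) over melanoma of 11949 (n = 8) for the 21 tested rows with a gene symbol, with 95% intervals from edgeR; dotted lines mark a 2-fold change. The interval of CYP1A1 is the 1 that leaves out 0 (unadjusted), and 13 intervals lie within the dotted lines.

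The driver Xmrk stood at 390, 766 and 695 CPM in the melanomas of 11963a, d and g, and in those of 11949 its lowest, median and highest values were 383, 594 and 1204 CPM. The 3 melanomas of 11963 lay inside the range of 11949, with 11963a near its lower end. Xmrk averaged 617 ± 200 CPM in 11963 (SD, n = 3) and 660 ± 264 CPM in 11949 (SD, n = 8), a log2 fold change of -0.10 (95% interval -0.89 to 0.69, edgeR adjusted p = 0.979). A two-sided exact permutation test of mean log2 CPM gave p = 0.909 over 165 assignments, of which 0.00606 is the smallest possible, and 0.909 after adjustment over the 3 permutation tests made. In skin Xmrk averaged 84.5 ± 31.0 CPM in 11963 and 52.0 ± 18.5 CPM in 11949 (SD, n = 3 and 8, log2 fold change 0.70, 95% interval -0.10 to 1.50, edgeR adjusted p = 0.768). The difference between title numbers in melanoma minus that in skin was -0.68 on the log2 scale (95% interval -1.82 to 0.46, edgeR with the fish as a block, adjusted p = 0.983). It was fitted only on the fish with both tissues, 3 of 11963 and 7 of 11949.

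Among other receptors and kinases, FGFR4, a receptor for fibroblast growth factors, varied widely within 11963. It had 9.53, 63.4 and 46.2 CPM in the melanomas of 11963a, d and g, and a range of 7.86 to 34.3 CPM with a median of 21.7 in 11949. So 11963d and 11963g stood above all 8 melanomas of 11949, and 11963a stood below 7 of them. The log2 fold change was 0.85 (95% interval -0.24 to 1.94, edgeR adjusted p = 0.825). In the skins of these fish FGFR4 had 18.1, 31.6 and 19.9 CPM in 11963a, d and g. PRKCB, a calcium-dependent protein kinase C, had 5.64, 4.35 and 6.86 CPM in the melanomas of 11963a, d and g against 0.590 to 25.9 CPM in those of 11949. Its values were tight in 11963 and wide in 11949 (log2 fold change -0.76, 95% interval -2.66 to 1.14, edgeR adjusted p = 0.913). PRKCE_1of2, a copy of a calcium-independent protein kinase C gene, averaged 30.1 ± 9.18 CPM in 11963 and 25.2 ± 6.71 CPM in 11949 (SD, n = 3 and 8, log2 fold change 0.25, 95% interval -0.46 to 0.97).

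The stress-activated kinases had similar means. MAPK9, a c-Jun N-terminal kinase, averaged 34.3 ± 8.23 CPM in 11963 and 32.3 ± 2.54 CPM in 11949 (SD, n = 3 and 8, log2 fold change 0.09, 95% interval -0.42 to 0.59). MAPK14_2of2, a copy of the p38 alpha kinase gene, averaged 9.96 ± 3.47 CPM and 9.49 ± 1.48 CPM in 11963 and 11949 (log2 fold change 0.07, 95% interval -0.59 to 0.72). All 8 melanomas of 11949 fell within the range of 11963 for MAPK9, and 7 of 8 did for MAPK14_2of2. STAT4, a transcription factor activated by interleukin-12, had 9.53, 5.69 and 4.34 CPM in the melanomas of 11963a, d and g, and 5.91 to 11.2 CPM in those of 11949 (log2 fold change -0.44, 95% interval -1.21 to 0.33, edgeR adjusted p = 0.885). The melanomas of 11963d and 11963g stood below all those of 11949, while 11963a did not. PMEPA1, an inhibitor of transforming growth factor beta signalling, had 1, 11 and 3 counts in the melanomas of 11963a, d and g and between 0 and 34 in those of 11949, and its interval reached from -3.51 to 1.26 on the log2 scale. The log2 fold change of PMEPA1 was -1.12, and -2.17 without 11963d (edgeR adjusted p = 0.954).

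CYP1A1, a xenobiotic-metabolising enzyme induced through the aryl hydrocarbon receptor, came nearest to a difference among the rows with a symbol. It had 0.882, 2.17 and 1.14 CPM in the melanomas of 11963a, d and g, and in those of 11949 its lowest, median and highest values were 0.923, 7.88 and 11.04 CPM. The groups overlapped, since 11949h at 0.923 CPM and 11949l at 1.40 CPM lay within the range of 11963. The other 6 lay above that range, with 11949a only just above it at 2.24 CPM. The log2 fold change was -2.19 (SE 0.83, 95% interval -3.99 to -0.39, edgeR unadjusted p = 0.0207, adjusted p = 0.683). These are low counts, 23 in all over the 3 melanomas of 11963 and 260 over the 8 of 11949. In skin CYP1A1 averaged 5.03 ± 1.56 CPM in 11963 and 6.54 ± 2.66 CPM in 11949 (SD, n = 3 and 8, log2 fold change -0.38, 95% interval -1.40 to 0.64). The difference in melanoma minus that in skin, in the 3 and 7 fish with both tissues, was -1.53 on the log2 scale (95% interval -3.02 to -0.03, edgeR with the fish as a block, unadjusted p = 0.0462, adjusted p = 0.983).

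Of the 3 other rows on the list of oxidative stress and xenobiotic genes, 0 passed. GSTM3, a glutathione S-transferase, had 361, 363 and 207 CPM in the melanomas of 11963a, d and g and 143 to 351 CPM in those of 11949 (log2 fold change 0.34, 95% interval -0.32 to 0.99, edgeR adjusted p = 0.902). The melanomas of 11963a and 11963d stood above all 8 of 11949, and 11963g stood above 3. GPX6, of the glutathione peroxidase family, had 10.9, 13.9 and 5.49 CPM in 11963a, d and g and 4.62 to 8.18 CPM in 11949, with 11963a and 11963d again above all 8 (log2 fold change 0.55, 95% interval -0.17 to 1.27, edgeR adjusted p = 0.826). OXR1, a gene of oxidation resistance, averaged 49.3 ± 13.6 CPM in 11963 and 49.6 ± 13.9 CPM in 11949 (SD, n = 3 and 8), a log2 fold change of -0.0092 (95% interval -0.70 to 0.68).

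None of the chaperone and lactate rows passed (0 of 3). HSP90AB1, a constitutive cytosolic chaperone, averaged 3641 ± 942 CPM in 11963 and 4155 ± 462 CPM in 11949 (SD, n = 3 and 8, log2 fold change -0.19, 95% interval -0.66 to 0.28). The 8 melanomas of 11949 lay within the range of 3024 to 4725 CPM set by 11963, where 11963g was the high one. CALR3_1of2, a copy of a calreticulin gene of the endoplasmic reticulum, averaged 191 ± 66.9 CPM in 11963 and 162 ± 39.6 CPM in 11949 (log2 fold change 0.24, 95% interval -0.37 to 0.85). LDHB_1of2, a gene copy for the B chain of lactate dehydrogenase, averaged 841 ± 151 CPM in 11963 and 948 ± 117 CPM in 11949 (log2 fold change -0.17, 95% interval -0.65 to 0.30).

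Among the clock and nuclear regulators, 0 of 5 passed. CHD4_2of2, a copy of the ATPase of the NuRD chromatin remodelling complex, had 28.9, 75.3 and 113 CPM in the melanomas of 11963a, d and g, and 25.2 to 84.9 CPM with a median of 48.1 in those of 11949 (log2 fold change 0.52, 95% interval -0.38 to 1.42, edgeR adjusted p = 0.882). The same 3 fish had 43.5, 101 and 141 CPM in skin, so their order was the same in both tissues. CRY2, a circadian repressor, had 11.1 to 13.7 CPM in 11963 and 6.03 to 22.1 CPM in 11949, where 3 melanomas lay below and 5 above the range of 11963 (log2 fold change -0.29, 95% interval -1.25 to 0.66). CSNK1A1, a casein kinase that phosphorylates beta-catenin, averaged 352 ± 40.5 CPM in 11963 and 352 ± 67.1 CPM in 11949 (log2 fold change 0.0013, 95% interval -0.51 to 0.51). CUL4B, a ubiquitin ligase scaffold, had a log2 fold change of 0.03 (95% interval -0.50 to 0.56), and NR2F6_1of2, a copy of an orphan nuclear receptor gene, had 0.0063 (95% interval -0.59 to 0.60). AP1M1, part of the AP-1 clathrin adaptor, averaged 68.2 ± 20.1 CPM in 11963 and 57.3 ± 11.8 CPM in 11949 (SD, n = 3 and 8, log2 fold change 0.25, 95% interval -0.34 to 0.85). Rows named as copies may share reads with their other copies.

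**Figure D3:**
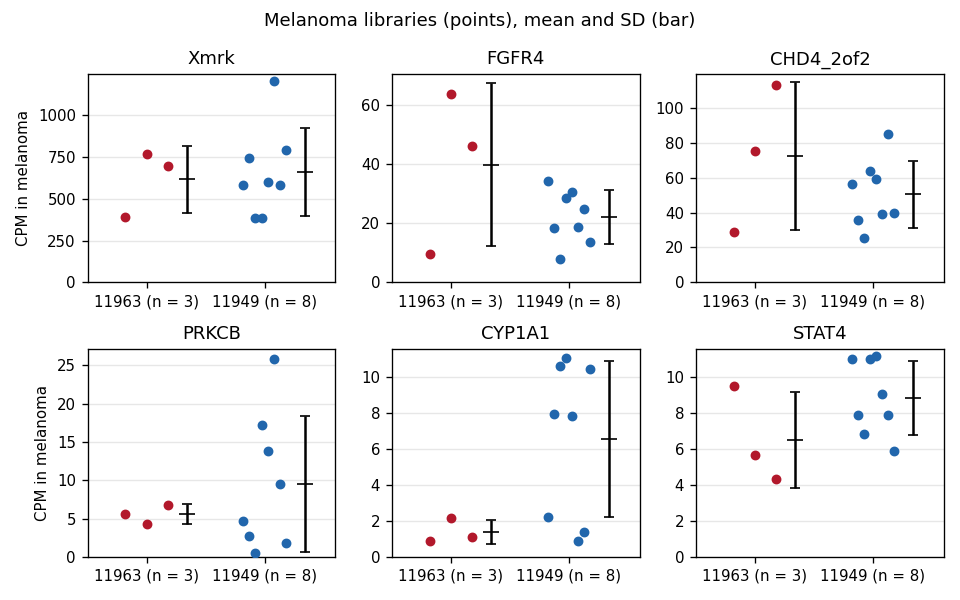
CPM of 6 genes in each melanoma library (points), with the mean and SD beside each group; each vertical axis starts at 0. FGFR4 and CHD4_2of2 spread widely within 11963, PRKCB and CYP1A1 spread widely within 11949, and the groups overlap in all 6 panels.

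The 9 rows with a symbol that were too low to test were ANXA5_2of2, CAMK2B_1of2, CCR6_1of2, CCR6_2of2, CIDEA, FAM19A3, IGF1, KISS1 and MAPK11. The highest of them, MAPK11, a p38 kinase gene, had 16 counts over the melanomas of 11963 and 43 over those of 11949. IGF1, an insulin-like growth factor, had 8 and 17, and KISS1, the precursor of kisspeptin, had 2 and 5 in 11963 and 11949. CIDEA and FAM19A3 had 0 counts in all 11 melanomas. Of 18 gene lists, 7 matched at least 1 row with a symbol. The list of Xmrk and receptor signalling matched 7 rows, 0 of which passed (median log2 fold change 0.07). The oxidative stress and xenobiotic list matched 4 rows (0 passed, median 0.16), the circadian list 3 (0, median 0.0013), the chaperone list 2 (0, median 0.023), the chromatin list 2 (0, median 0.26), the adaptor list 1 (0, 0.25) and the lactate list 1 (0, -0.17). The lists for melanocytes and other pigment cells, keratinocytes, fibroblasts, muscle, erythrocytes, leukocytes, endothelium, nerve and glia, the cell cycle and respiration matched 0 rows. The cell types in these tumors could therefore not be checked by named markers.

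In place of named markers, transcripts higher in tumor or in skin were taken from fish outside the comparison, 3 fish of 11935 and 11960a. The 50 transcripts highest in their tumors over their skins summed to 30973, 41137 and 35355 CPM in the melanomas of 11963a, d and g, and to between 20469 and 53459 CPM in those of 11949. The same sum ran from 377 to 857 CPM in the 11 skins of the 2 title numbers, so every melanoma compared stood far above every skin. The 50 transcripts highest in skin over tumor summed to 359, 818 and 880 CPM in the melanomas of 11963a, d and g and to between 247 and 887 CPM in those of 11949, where skins held 3510 to 8569 CPM. Neither sum separated the title numbers: the difference of mean log2 sums was 0.18 for the tumor list (two-sided exact permutation p = 0.564, adjusted p = 0.900 over 3 tests) and 0.23 for the skin list (exact permutation p = 0.600, adjusted p = 0.900). Of the tumor list 50 transcripts were tested between the title numbers and 0 passed (median log2 fold change -0.04). Of the skin list 43 were tested and 0 passed (median 0.49, 29 higher and 14 lower in 11963). Over all transcripts 0.00648% passed, so counts of 0 say little about either list. An unadjusted edgeR p below 0.05 was seen for 3 of the 50 and 7 of the 43, beside 6.77% of all transcripts. Equal skin content of the 2 groups is not shown by these values.

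Pairs of melanomas of 11963 lay inside the range of pairs taken across the title numbers. Across 15443 transcripts, which are not independent replicates, log2 CPM correlated between 11963d and 11963g with r = 0.872, between 11963a and 11963d with r = 0.774 and between 11963a and 11963g with r = 0.715. Between a melanoma of 11963 and one of 11949, r ran from 0.701 to 0.882 with a median of 0.828 over 24 pairs. Within 11949 it ran from 0.713 to 0.890 with a median of 0.843 over 28 pairs. Of the 9671 transcripts with a mean of at least 10 CPM, 6.64% to 13.2% differed at least 4-fold between 2 melanomas of 11963, 5.73% to 15.7% between the title numbers and 4.87% to 15.1% within 11949. The pairs share libraries, so these figures describe the libraries and were not tested.

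On the leading principal component, which carried 34.8% of the variance in log2 CPM, melanomas of both title numbers stood at both ends. The melanomas of 11963a, d and g lay at -97.9, 46.8 and 78.2, and those of 11949 ran from -120 in 11949c to 76.5 in 11949l. At its low end lay 11963a, 11949b and 11949c, and at its high end 11963g and 11949l. The skin-list sum was 359 CPM in 11963a, 247 in 11949c and 448 in 11949b, against 880 in 11963g and 734 in 11949l. The sum did not follow the component in order. It was 887 CPM in 11949f at a score of 49.9, 538 in 11949h at 30.2 and 732 in 11949d at -3.99. On the second component, with 11.2% of the variance, 11963d and 11963g lay at -55.0 and -73.1. Both were below all melanomas of 11949, which ran from -20.5 in 11949c to 49.9 in 11949h. The melanoma of 11963a, at -9.56, lay within that range. In 11963g and 11949l the 10 most abundant transcripts took 19.7% and 21.4% of all counts, and in the other 9 melanomas at most 11.8%. Without the 10 most abundant transcripts the edgeR count of passing transcripts stayed at 1. Without 11963a, 11949b and 11949c together it was 0, in an omission chosen after seeing the data that also left fewer libraries. The part of the skin-list sum in the result was not tested. Total counts ran from 5132105 to 5928455 in the melanomas of 11963 and from 2578877 to 5933067 in those of 11949. Title number carried 9.70% of the summed variance of log2 CPM with 1 of the 10 degrees of freedom among the 11 libraries.

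**Figure D4:**
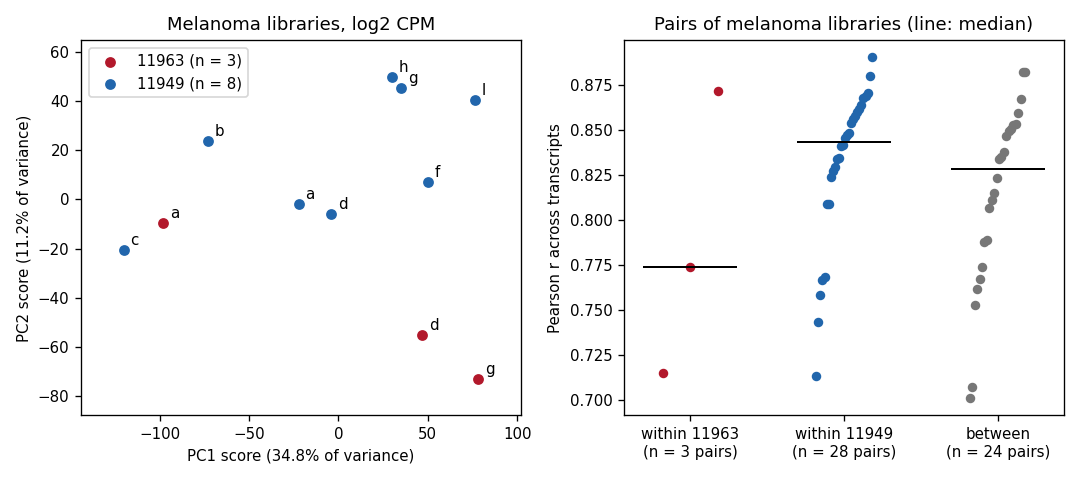
Left, scores of the 11 melanoma libraries on the first 2 principal components of log2 CPM, with the fish letter beside each point. Right, Pearson r of log2 CPM across 15443 transcripts for each pair of libraries (points; line: median); pairs within 11963 (0.715 to 0.872) lie inside the range of pairs between title numbers.

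The 2 groups of melanomas did not overlap for 221 transcripts (1.43% of 15443), 70 of them higher (0.453%) and 151 lower (0.978%) in 11963. If title number made no difference, all 165 assignments of the libraries would be equally likely. A share of 0.00606 of them separates the groups in each direction, so many of the 221 could arise with no difference. The share found was below this for transcripts higher in 11963 and above it for those lower. None of the 221 (0) carried a gene symbol, as 21 of the 15443 tested rows do. Their absolute log2 fold changes had a median of 1.15, and 128 reached a 2-fold change. Over all transcripts tested the median was 0.36, and 1842 (11.9%) exceeded a 2-fold change. A pick of groups that do not overlap favours larger differences. Skin libraries of the same title numbers gave a second measurement, largely of the same fish. Of 216 of these transcripts that were also tested in skin, 202 (93.5%) kept their sign there, compared with 72.8% of all 14784 transcripts tested in both tissues. In skin 34 of the 216 (15.7%) again had groups that did not overlap, in the same direction, against 1.35% of the transcripts tested in both tissues. These 34 were 17 higher and 17 lower in 11963, and ENSXMAT00000009646 was among the lower ones. Of the 85 transcripts called in melanoma by DESeq2 and tested in skin, 84 had the same sign in skin and 62 (72.9%) also an unadjusted p below 0.05 there, against 6.69% of all. Skin and melanoma of a fish share its genome and may share its handling, so the 2 tissues are not independent samples of a title number. Both sets were picked for a melanoma difference, so shares above those of all transcripts can follow from the pick. Of 999 transcripts with an unadjusted edgeR p below 0.05 in melanoma and tested in skin, 94.2% kept their sign. In 38.4% skin also had an unadjusted p below 0.05, and in 7.31% skin groups did not overlap, in the same direction.

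**Figure D5:**
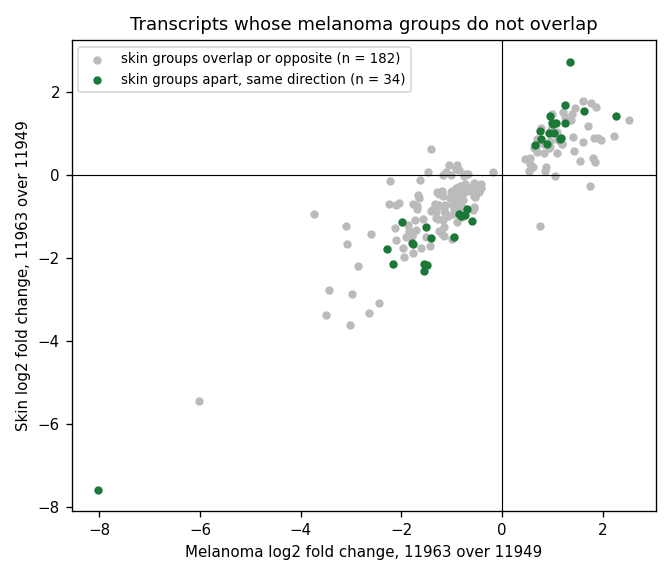
Log2 fold change of 11963 over 11949 in skin (vertical axis) against that in melanoma (horizontal axis) for the 216 transcripts whose melanoma groups do not overlap and which were tested in skin. Of these, 202 have the same sign in both tissues, and 34 (green) also have skin groups that do not overlap; the lowest point is ENSXMAT00000009646, whose fitted values rest on counts of 0.

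In skin itself 0 of 15296 transcripts passed in edgeR (0%), while 1062 (6.94%) had an unadjusted p below 0.05 and DESeq2 called 104 (0.682%). Skin groups did not overlap for 213 transcripts (1.39%), in either direction. With 3 skins against 8, the share separated with no difference is again 0.00606 in each direction. The edgeR count in skin was 5 without the skin of 11963d and 5 without that of 11949a. Whether the difference between title numbers itself differed between melanoma and skin was tested in the 3 fish of 11963 and 7 fish of 11949 with both tissues, blocking on fish. In edgeR 0 of 16076 transcripts passed (0%). Unadjusted p-values under 0.05 numbered 679 (4.22%), against 804 expected with no difference. DESeq2 called 13 of the 5167 transcripts to which it gave an adjusted p (0.252%), a smaller base than that of edgeR. The difference in melanoma minus that in skin was above 0 for 0 of the 13 and below 0 for 13. None of the rows with a symbol passed (0), and CYP1A1 was the 1 with an unadjusted p below 0.05.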

How the data were processed

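RNA was sequenced from melanoma and skin of single fish. Per the submitters' processing notes, reads were aligned with GSNAP. No source used here gives its version, the genome build, the annotation, the counting program or how reads fitting either parent's allele were handled. The authors deposited raw counts of reads per transcript model, 20499 rows by 32 libraries, of which 30 rows carry a gene symbol. Columns were matched to samples by title, and 1 column that matches no title was not used. Fish from 1 title number are separate animals, and the lowest chi-square per degree of freedom between 2 melanoma libraries was 33.3, so none repeated another.

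Counts were tested in R 4.3.3 with the edgeR 4.0.16 quasi-likelihood F-test on the 11 melanomas alone, with TMM scaling, filterByExpr and Benjamini-Hochberg adjustment over all transcripts at 0.05. SE and 95% intervals derive from the F statistic. Log2 CPM used a prior count of 2. The tissue difference was fitted with the fish as a block: the titles name 10 fish with both tissues, and in each the deviations of the 2 tissues from their group means correlated (r = 0.484 to 0.737). No r between tissues of different fish is given beside these, so they do not test the pairing by title. Alternatives were DESeq2 1.42.0, RLE factors, other filters, all 15 titled tumors in 1 fit, removal of the 10 most abundant transcripts, a test against a 2-fold change and omission of each library. Scripts were tested on simulated data. Figures used matplotlib 3.10.9.

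The members and gene lists were chosen with earlier results of these data known. The rule for named genes took all tested rows with a symbol, then up to 2 identifiers in each direction that pass the threshold with a mean of at least 10 CPM, which none did, so the 4 identifiers named were chosen after their values were seen. Total counts limit the precision of low rows, and floors and intervals cover counting error or the spread between these fish only.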

Additional observations from a re-analysis of the deposited data

Results flagged for a closer look

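In 28 groups of the 8 melanoma libraries of 11949, a library far from the others was searched for. Chance gives about 1.4 and 2 were found. PRKCE_1of2 stood at 10.8 CPM in the melanoma of 11949c, below the next lowest, 22.7 CPM in 11949b. The library of melanoma 11949f summed to 2578877 counts, below the 4938279 of 11949c, which came next. Groups of 3 libraries, as in 11963, were not searched.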

How the results depend on the processing

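Of the 19 alternatives for the melanoma count, 15 stayed at 1. DESeq2 gave 87, leaving out single libraries gave 1 to 14, and omission of 11963a, 11949b and 11949c together, chosen after seeing the data, gave 0. In skin DESeq2 gave 104 and single omissions 0 to 5. For the difference between tissues DESeq2 with the replicate block gave 13, and the count was 0 with the replicate block and 0 without it (99 unadjusted p below 0.05). No paired analysis was possible for the melanoma comparison because each library is a different fish. Transcripts at 0 in all melanomas of one title number and at least 10 counts in every melanoma of the other numbered 1, ENSXMAT00000009646. At a minimum of 20 counts there were 0. At a minimum of 1 count, 2 transcripts were at 0 in 11963 and 2 in 11949. The skin-list difference was 0.20 with up to 20 transcripts and -0.0051 with up to 100 transcripts. Xmrk ran from -0.25 to 0.13 over single omissions and was 0.070 without the 3 tumors named. No row with a symbol passed under the 18 alternatives computed for it in melanoma, but signs near 0 turned. OXR1 was 0.0091 with RLE, 0.0087 with DESeq2, 0.033 with the stricter filter, 0.037 without the 10 most abundant transcripts and 0.068 without the 3 tumors, and CSNK1A1 was -0.00098 with all titled tumors. Over single omissions the ranges were -0.085 to 0.44 (CALR3_1of2), -0.11 to 0.081 (CSNK1A1), -0.065 to 0.11 (CUL4B), -0.25 to 0.21 (MAPK14_2of2), -0.092 to 0.20 (MAPK9), -0.082 to 0.13 (NR2F6_1of2) and -0.14 to 0.19 (OXR1). The cause was not tested.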
